A study of Danio rerio with 10 samples.

Results

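The cells described here are those that the deposited annotation calls EVL, the enveloping layer of the zebrafish embryo. They were chosen by that label alone and number 375 of the 8226 annotated cells of 5 labelled libraries. Embryos of the wild-type AB/TL strain received 4-thiouridine triphosphate and GFP, RFP and mCherry mRNAs by injection at the 1-cell stage, were grown to dome (1 library), 30% epiboly (replicates A and B) or 50% epiboly (replicates A and B), deyolked, dissociated and were captured by Drop-seq. RNA made after the injection takes up the 4-thiouridine and, after iodoacetamide treatment, carries T-to-C changes, so a new molecule (labelled, zygotic) can be told from one laid down by the mother (unlabelled, maternal). Each library pooled many embryos, the embryos of the first epiboly replicate were deyolked by hand and the others by shaking, and no step of doublet removal was given in the sources used here.

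There were 92 EVL cells at dome, 143 and 23 in replicates A and B at 30% epiboly, and 114 and 3 in replicates A and B at 50% epiboly. They made up 4.96% of the dome library (exact 95% interval 4.02% to 6.05%), 5.91% (5.00% to 6.92%) and 3.64% (2.32% to 5.41%) of the 30% epiboly libraries, and 3.72% (3.07% to 4.45%) and 1.195% (0.247% to 3.45%) of the 50% epiboly libraries. These intervals cover counting error only. With 3 cells and 5388 unique molecules (UMIs), 50% epiboly replicate B was left out of the comparisons, which rest on 372 cells in 4 libraries. Summed over EVL cells these libraries held 352313, 436612, 116018 and 353836 UMIs (dome, 30% A, 30% B and 50% A). An EVL cell held a median of 3320.5, 2590, 4101 and 2396 UMIs, against 3523, 2420, 4073 and 2414.5 UMIs in a cell of any other type of the same library. No EVL cell shared its barcode with a cell of another library. The study injected mCherry mRNA in alternative forms, a single form per embryo. Over all libraries both forms were found in 28 of 361 EVL cells with any mCherry UMI. Among other cells with any they were found in 664 of 7496. The source of this mixing was not tested. Among these 4 libraries replication existed at 30% epiboly only, so the spread behind every main stage test comes from that pair and from the trend over all genes. The p-values measure the spread between libraries, which may be technical. Fits that hold both 50% epiboly libraries also draw on the 50% epiboly pair, with 3 EVL cells in replicate B. The EVL label came from clustering the same counts, so a change with stage inside EVL cells cannot be told apart from a change in which cells received the label.

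The enveloping layer is the outermost sheet of the blastula, a single layer of flat epithelial cells that covers the deep cells from which the embryo proper forms. It is the first epithelium of the fish. It seals the embryo from the water through tight junctions, is held together by cadherin junctions and desmosomes, and is stiffened by keratin filaments. During epiboly it spreads over the yolk together with the yolk syncytial layer, to which its margin is attached, and it later becomes the periderm. Its identity depends on transcription factors that include grainyhead-like and Krüppel-like proteins.

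The cells annotated as EVL carried the EVL markers. Krt4 and krt8 are keratins and cldne and cldnb are claudins, the sealing proteins of tight junctions. In EVL cells krt4 stood at a CPM (UMIs scaled to a common library total) of 1374 at dome, 8976 and 8094 at 30% epiboly and 13105 at 50% epiboly, against 6.36, 28.3, 7.13 and 31.6 in the other cells of the same libraries. Krt8 stood at 1062, 6686, 7895 and 9770.1 CPM in EVL cells, against 12.15, 39.9, 22.5 and 43.8 CPM in the others. Cldne stood at 576, 4049, 3543 and 4889 CPM, against 2.12, 13.6, 5.70 and 16.3 CPM, and cldnb at 613, 1770.5, 2310.0 and 2202 CPM, against 1.98, 7.18, 3.92 and 6.88 CPM. Every EVL library was above every library of other cells for each of these 4 genes, and the dome library was the lowest of the EVL libraries. The 10 genes with the largest fold of EVL over other cells, among those with 50 CPM or more in the EVL cells of every library, were krt4, si.ch211.125o16.4, krt92, zgc:193505, cldne, cldnb, tmsb1, si.ch73.347e22.8, stx11b.1 and cebpb. The uncharacterised gene zgc:193505, for one, stood at 156, 868, 1974 and 1894 CPM in EVL cells, against 0.848, 3.52, 1.07 and 4.75 CPM. All these genes were among those clustered, so the contrast is a description of the label and was not tested.

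**Figure D1:**
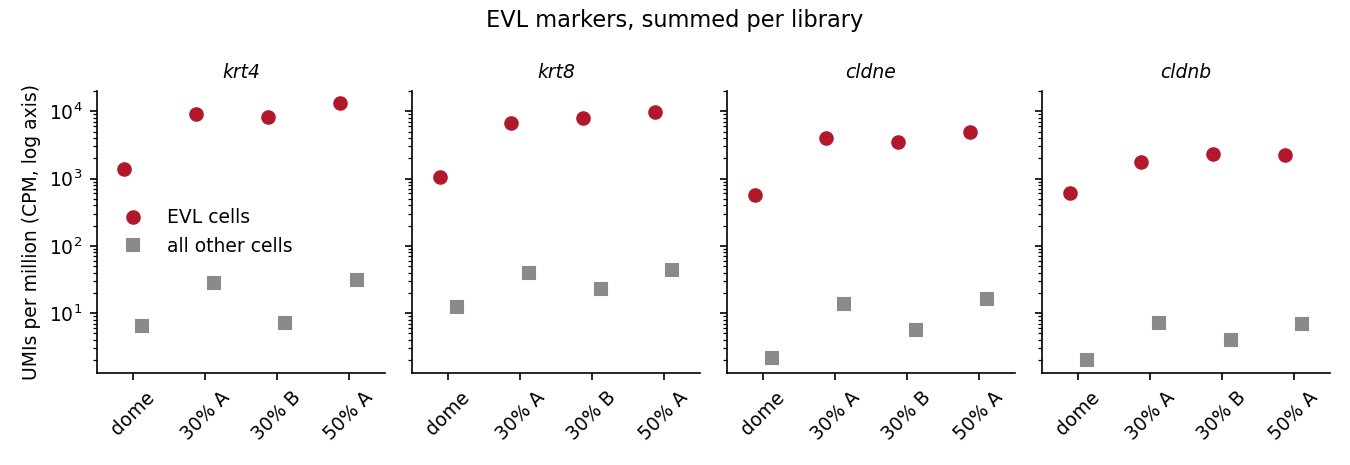
CPM of krt4, krt8, cldne and cldnb (log axis), summed over EVL cells and over all other cells of each library; each point is 1 library. EVL cells were above the other cells in every library, and dome was the lowest EVL library for all 4 genes.

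Single cells were less uniform than the sums. At least 1 UMI of the 4 markers was found in 60 of 92 dome EVL cells (65.2%), in 80.4% and 87.0% of the EVL cells at 30% epiboly and in 89.5% at 50% epiboly. In the other cells of the same libraries the shares were 7.998%, 19.6%, 12.6% and 20.0%. Over all 5 libraries, 279 of the other cells lay on the study's trajectory to the EVL, 263 of them at dome. How much of these shares came from free RNA was not tested. After each cell was thinned to 1000 UMIs, the shares were 45.7%, 70.6%, 69.6% and 84% in EVL cells and 2.496%, 8.67%, 4.28% and 8.32% in other cells.

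The annotation also says which cells the study placed on its trajectory to the EVL, and this divided the EVL label into 2 unlike sets. On the trajectory were 238 of the 375 EVL cells: 69 of 92 at dome, 80 of 143 and 14 of 23 at 30% epiboly, and 73 of 114 and 2 of 3 at 50% epiboly. The summed level of krt4, krt8, cldne and cldnb was 4332, 33346, 26917 and 41002 CPM in EVL cells on the trajectory, 151, 482, 5200.1 and 1614 CPM in EVL cells off it, and 22.6, 89.0, 39.2 and 98.5 CPM in all other cells. EVL cells off the trajectory were thus below those on it and above the other cells in all 4 libraries. In 30% epiboly replicate B 1 of the 9 cells off the trajectory held 99 of their 141 marker UMIs, and without it the level was 1724 CPM. Cells off the trajectory held fewer UMIs each, with medians of 2316, 2412, 2753 and 2121, against 4135, 2873, 5544 and 2654 on the trajectory. The trajectory was drawn from the same counts, so this too is a description. Because of it, the stage counts of total RNA below are also given for EVL cells on the trajectory alone, an alternative chosen after the data had been seen.

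Some genes of the layer were above other cells in the EVL cells off the trajectory too, most of them at lower levels than on it. Spaca4l, a predicted membrane-anchored protein of the Ly6 family, stood at 453, 793, 2028 and 797 CPM in them and at 806, 8660.1, 4691 and 9011 CPM in those on the trajectory, against 14.8, 55.3, 33.9 and 53.4 CPM in other cells, and off the trajectory it was at least 14.3-fold higher in each library. Tagln2, a transgelin that binds actin, stood at 436, 476, 1143 and 514 CPM in the EVL cells off the trajectory and at 407, 412, 742 and 542 CPM in those on it, against 65.1, 42.3, 100.1 and 51.6 CPM in other cells. Krt5, krt18a.1 and krt4, which are keratins, si.ch211.125o16.4, stard14 (a lipid-transfer protein) and sult6b1 (a sulfotransferase) were also above other cells in all 4 libraries, by at least 5.06-fold, and each of these 6 was lower off the trajectory than on it in every library. Of 1760 genes with 50 CPM or more in the cells off the trajectory of every library, 13 were more than 2-fold above other cells in each. The claudin cldne was at 0, 63.4, 516 and 192 CPM off the trajectory, and grhl3, a grainyhead-like factor of surface epithelia, at 0, 0, 73.8 and 10.1 CPM. These genes were picked after their values had been seen.

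Margin and ectoderm markers were present in EVL cells, with lower sums than in other cells of every library. The sum of 10 margin mesoderm and endoderm genes was 588, 1276, 1077 and 1114 CPM in EVL cells, against 748, 3127, 2568 and 3298 CPM in other cells (dome, 30% A, 30% B and 50% A), and none of the 10 was at 0 in EVL cells. The sum of 8 ectoderm genes was 378, 1257, 836 and 1125 CPM, against 482, 2009, 1752 and 2372 CPM. The 5 germ cell genes summed to 653, 396, 603 and 314 CPM in EVL cells, against 802, 797, 590 and 431 CPM. Of 8 yolk syncytial layer genes in the table, 7 were at 0 in EVL cells. Genes of stress and apoptosis summed to 2117, 1871, 1241 and 1843 CPM in EVL cells, against 2001, 2199, 2117 and 2243 CPM in other cells. The part of RNA from other cell types in the stage changes below was not tested beyond the alternatives named there.

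The study ordered all cells by a pseudotime computed from total RNA. Its unit, the pseudo-minute, is a linear rescaling of a score and not a measured time, and the study says it might not be uniform. Minutes of pseudotime given here are pseudo-minutes. The median EVL cell stood at 287.1 at dome, 316.4 and 326.7 at 30% epiboly and 330.8 at 50% epiboly, against 280.6, 313.0, 316.2 and 329.6 for the other cells of those libraries. Within each library the markers followed this order: across EVL cells, Pearson's r between pseudotime and the summed level of the 4 markers was 0.729, 0.793, 0.806 and 0.788. In 10-minute bins of dome EVL cells the markers ran between 393 CPM in the first and 6288 CPM in the last bin, and at 50% epiboly between 4662 and 56933 CPM. Pseudotime was built from the same total RNA, so these values describe the ordering and carry no test.

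**Figure D2:**
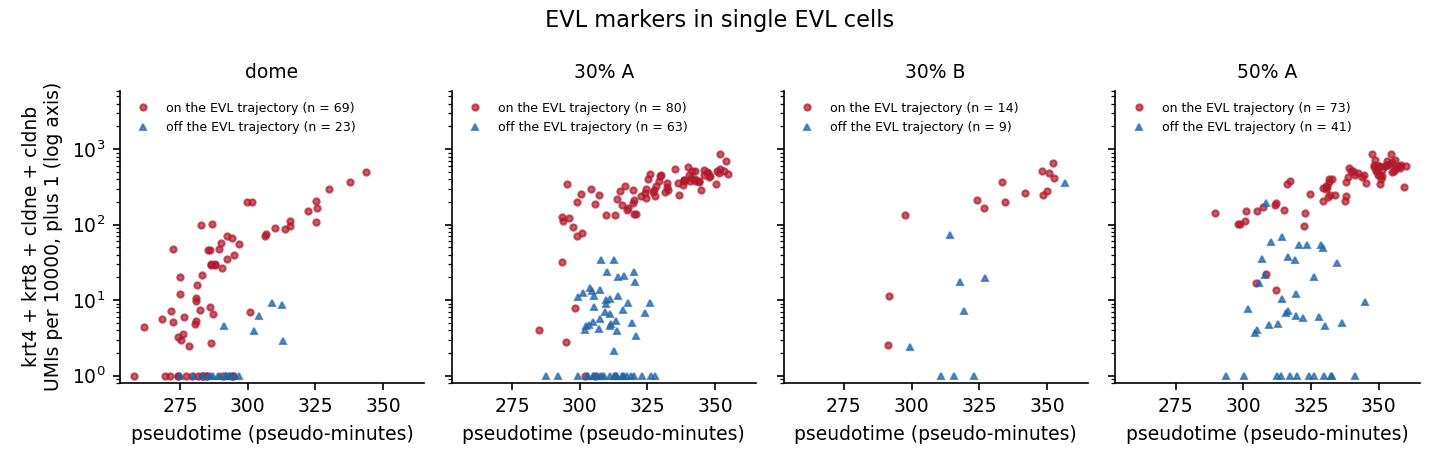
Summed UMIs of krt4, krt8, cldne and cldnb per 10000 UMIs of each EVL cell, plus 1 (log axis), against its pseudotime in pseudo-minutes, by library, with cells on and off the EVL trajectory marked. The later cells of each library were higher, and most cells off the trajectory had low values.

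The labelled fraction, which is read from T-to-C changes, ran in the same order. It was the share of new molecules among all UMIs, over pairs of gene and cell with at least 3 UMIs. It did not enter the pseudotime, but new RNA is part of the total RNA from which pseudotime was built. The study also started the pseudotime from dome cells high in maternal transcripts. The fraction and the pseudotime are thus not independent, and the comparison below was not run without genes high in EVL cells. When the EVL cells of each library were divided at their median pseudotime, the later cells were 21.0%, 50.9%, 46.4% and 62.7% labelled and the earlier cells 12.7%, 41.1%, 31.5% and 51.3% (dome, 30% A, 30% B and 50% A). The later cells were higher in 4 of 4 libraries, by 8.31, 9.82, 14.9 and 11.4 percentage points (mean 11.1 ± 2.83, SD, n = 4). An exact two-sided sign-flip test gave p = 0.125, the smallest that 4 libraries allow. On the trajectory alone the mean difference was 13.6 points. Within libraries, r between pseudotime and the labelled fraction of a cell was 0.628, 0.661, 0.619 and 0.673, with cells of 1 library sharing its preparation and depth. The later cells held a median of 3249.5, 2538, 4429 and 2645 UMIs and the earlier ones 3475.5, 2770, 3859 and 2086 UMIs (dome, 30% A, 30% B and 50% A). With pairs of exactly 3 UMIs the mean difference was 5.95 points, higher in 4 of 4 libraries.

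**Figure D3:**
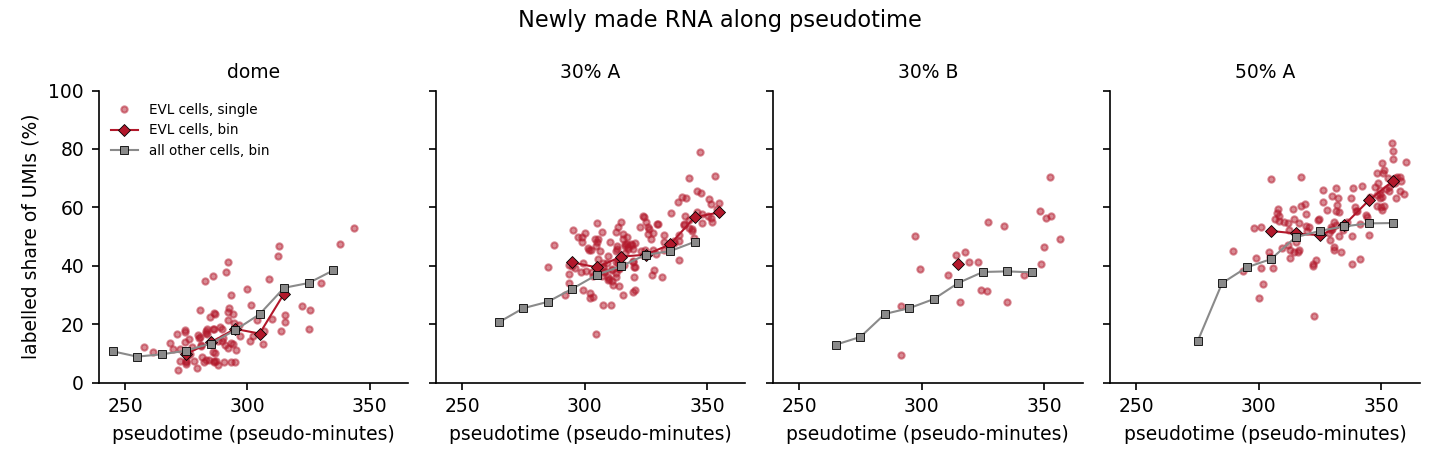
Labelled fraction in percent against pseudotime in pseudo-minutes, by library. Small points are single EVL cells, and lines join bins of 10 pseudo-minutes of EVL cells and of all other cells. Bins with fewer than 5 cells were left out. In dome EVL cells it ran between 9.96% in the bin at 270 pseudo-minutes and 30.5% in the bin at 310, and at 50% epiboly it reached 69.2% in the bin at 350.

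The on-trajectory and off-trajectory sets did not differ in 1 direction. The labelled fraction was 15.4%, 49.3%, 39.6% and 60.3% on the trajectory, against 24.3%, 41.5%, 41.7% and 52.3% off it. It was lower on the trajectory at dome and in 30% epiboly replicate B and higher in the other libraries. Median pseudotime was 286, 328, 338 and 341 minutes on it, against 292, 311, 318 and 319 minutes off it.

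The labelled fraction was also set against that of other cells. Over all genes, 16.8%, 46.8%, 40.0% and 58.3% of EVL UMIs were labelled, against 13.5%, 37.6%, 31.8% and 50.9% in other cells. Set against other cells in the same 10-minute bins of pseudotime, EVL cells differed by -0.92, 3.97, 1.46 and 6.53 points (mean 2.76 ± 3.21, SD, n = 4, higher in 3 of 4 libraries, exact two-sided sign-flip p = 0.25). When genes more than 2-fold higher in EVL cells were left out, a filter that acts on genes of the EVL side alone, the mean was -3.65 ± 2.11 points (SD, n = 4).

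As a check of the 4-thiouridine label, genes known to be made only by the embryo were 87.3% to 94.3% labelled in EVL cells, and genes known to be only maternal 0% to 1.60%.

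The first question of the design was how the RNA of EVL cells changed with stage. UMIs were summed over the EVL cells of each library and tested with edgeR. A gene was tested if its level was high enough in at least 1 library. A gene with no UMI at dome thus entered through the later libraries and could only be called higher against dome. In the lists below these were krt91, tfap2c, anxa1c, acer1 and zfp36l1b. Of 4937 genes tested, 452 rose and 73 fell at 50% epiboly against dome at an adjusted p under 0.05, so 10.6% of all genes were called (9.16% higher, 1.48% lower). At 30% epiboly against dome 305 rose and 16 fell (6.5% called, 6.18% higher and 0.324% lower). The dome embryos and the second epiboly replicate (taken here as B) were deyolked by shaking and the first (A) by hand, so in 50% epiboly replicate A against dome the stage cannot be told apart from this preparation. With the replicate letter, which stands for the preparation, as a term over 5 libraries, edgeR called 24 genes at 50% epiboly against dome and 13 at 30% epiboly, all higher, with 21 and 10 of them among the calls above. That fit includes the 3 EVL cells of 50% epiboly replicate B, and its median gene stood at -0.35 at 50% epiboly. In the comparison made within 1 preparation, 30% epiboly replicate B against dome, 16 genes rose and 0 fell in edgeR (329 at an unadjusted p under 0.05), all 16 among the 321. The spread in this last fit came from the 50% epiboly pair, which crosses the preparations and has 3 EVL cells in replicate B. In the fits so far edgeR held every gene to the trend of spread over all genes, so no gene was tested against a spread of its own. On the trajectory alone and without TMM scaling, given next, the spread of each gene entered in part. The comparisons of 50% and of 30% epiboly with dome share the dome library. In EVL cells on the trajectory alone 265 genes rose and 7 fell at 50% epiboly, and 156 rose and none fell at 30% epiboly, where 641 genes had an unadjusted p under 0.05. Without TMM scaling 67 rose and 6 fell at 50% epiboly, where the median gene stood at -0.53 on the log2 scale, against -0.05 with it. DESeq2 called 131 higher and 2 lower. With 1 library left out at a time the count called at 50% epiboly against dome was 25 without 50% epiboly replicate A (replicate B put in its place), 288 without 30% epiboly replicate A and 364 without 30% epiboly replicate B (both with 50% epiboly replicate B added). The lists of genes that follow were drawn up for the biology of the layer with earlier results of these data known.

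**Figure D4:**
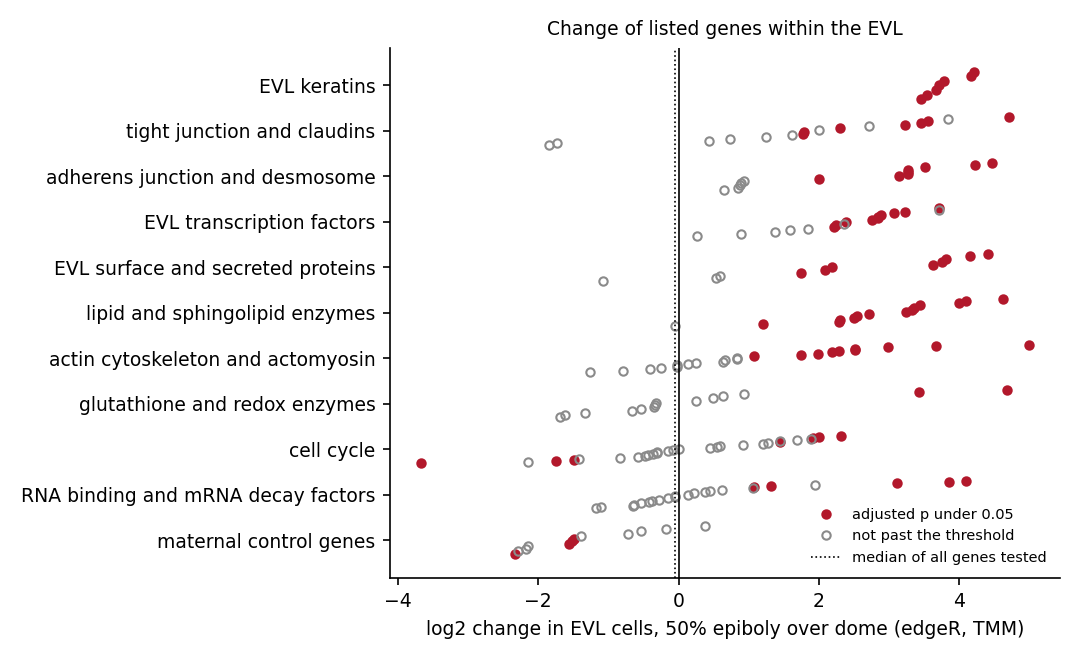
Log2 change at 50% epiboly against dome in EVL cells for each tested gene of the lists with at least 1 UMI at dome, by list. Filled points had an edgeR adjusted p under 0.05, and the dotted line is the median of all 4937 genes. Keratins (median 3.75) and lipid enzymes (median 3.24) lay high, and cell cycle genes lay on both sides of the line.

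Keratins rose together. All 8 of the tested keratins, of 11 listed, rose at 50% epiboly, beside 9.16% of all genes, with a median log2 change of 3.75. Krt91 had no UMI at dome, so it could only be called higher, and with it at its lower bound the median was 3.69. Over all genes the median was -0.05. At 30% epiboly 6 of 8 rose (median 3.06), beside 6.18% of all genes. Krt18a.1, a type I keratin that pairs with krt8, stood at 1297 CPM at dome, 8179 and 9283 CPM at 30% epiboly and 12902 CPM at 50% epiboly. Both 30% libraries and the 50% library were above dome, and the log2 change was 3.78 ± 0.33 (SE; edgeR adjusted p = 2.7e-26). Krt4 had a change of 3.72 ± 0.33 (edgeR adjusted p = 7.6e-26) and krt8 of 3.66 ± 0.34 (edgeR adjusted p = 1.1e-23). Krt5, a type II keratin, stood at 298, 2332, 3258 and 3889 CPM and changed by 4.17 ± 0.40 (edgeR adjusted p = 9.8e-22). Krt92 stood at 400.2, 1612, 2396 and 3179 CPM and krt97 at 45.4, 206, 655 and 616 CPM, again with dome lowest. On the trajectory alone 7 of 8 rose, krt91 being lost (edgeR adjusted p = 0.056), and 5 of 8 rose without TMM scaling and with DESeq2. At 30% epiboly 6 of 8 rose on the trajectory. With the preparation term 1 of 8 rose (median 3.29). In 30% epiboly replicate B against dome none of the 8 passed, with a median of 3.21 and all 8 positive. How reads shared by near-identical keratins were counted was not given, so single keratins are uncertain.

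Tight junction genes changed in part. Of 16 tested, 7 rose and none fell at 50% epiboly (crb3b, cldn23a, cldne, cldnf, cldna, cldnb and tjp3), beside 9.16% of all genes, with a list median of 1.90, and 5 rose at 30% epiboly, beside 6.18%. Cldne, described above, changed by 3.55 ± 0.37 (edgeR adjusted p = 2.2e-18) and cldnb by 2.31 ± 0.39 (edgeR adjusted p = 2.9e-07). Cldnf had 1 UMI at dome, 23 and 16 UMIs at 30% epiboly and 22 UMIs at 50% epiboly. Cldn23a, another claudin, stood at 213 CPM at dome, 1257 and 1267 CPM at 30% epiboly and 1444 CPM at 50% epiboly, with dome below the other libraries (log2 change 3.22 ± 0.44, edgeR adjusted p = 7.8e-11). Crb3b, a Crumbs protein that sets the apical side of epithelia, stood at 90.8, 176, 198 and 226 CPM and changed by 1.77 ± 0.59 (edgeR adjusted p = 0.03). F11r.1, a junctional adhesion molecule, was at 602, 685, 612 and 726 CPM and did not pass (edgeR adjusted p = 0.34). The cytoplasmic scaffold tjp2b stood at 85.2, 41.2, 25.9 and 17.0 CPM and did not pass either (edgeR adjusted p = 0.18). On the trajectory alone 4 of 16 rose at 30% epiboly and 5 at 50% epiboly, crb3b and the scaffold tjp3 missing the threshold (edgeR adjusted p = 0.053 and 0.062). Without TMM scaling 2 rose, and with DESeq2 3. The preparation term left 0 of 16 (median 1.57).

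Among 13 tested genes of adherens junctions and desmosomes, 8 rose at 50% epiboly (dspa, ppl, evpla, jupa, perp, eppk1, dsc2l and pkp3a; median 3.14), beside 9.16% of all genes, and 7 at 30% epiboly, beside 6.18%. Among those that rose, evpla, eppk1 and ppl are plakins, a family of proteins that bind keratin filaments. Evpla (envoplakin) stood at 116 CPM at dome, 739.8 and 1284 CPM at 30% epiboly and 969 CPM at 50% epiboly, and changed by 3.51 ± 0.48 (edgeR adjusted p = 6.3e-11). Eppk1 (epiplakin) stood at 68.1, 634, 603 and 929.8 CPM (log2 change 4.22 ± 0.53, edgeR adjusted p = 5.1e-13), and ppl (periplakin) at 68.1, 325, 896 and 478 CPM (log2 change 3.26 ± 0.54, edgeR adjusted p = 1.4e-07). For all 3 the dome library was below the rest. The adhesion proteins shared with deep cells did not pass: cdh1 (E-cadherin) stood at 659, 694, 715 and 885 CPM (edgeR adjusted p = 0.2), and epcam at 1195, 886, 2422 and 1563 CPM (edgeR adjusted p = 0.16). Both are taken up again below, in the contrast with other cells. On the trajectory alone 4 of 13 rose at 30% epiboly and 7 at 50% epiboly, there without TMM scaling 3 and with DESeq2 5. Adding the preparation term, 1 of 14 rose (median 2.68).

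Of 18 tested transcription factors of the EVL list, 10 rose at 50% epiboly (klf17, klf2b, her6, ovol1a, cebpb, znf185, grhl3, grhl1, klf6a and tfap2a), beside 9.16% of all genes, with a median of 2.57, or 2.37 with genes at 0 in dome at their bound. At 30% epiboly 10 rose as well, beside 6.18%. Cebpb, a basic leucine zipper factor, had the highest level and stood at 355 CPM at dome, 1775 and 1957 CPM at 30% epiboly and 1839.8 CPM at 50% epiboly (log2 change at 50% epiboly 2.83 ± 0.41, edgeR adjusted p = 8.1e-10). Klf17, a Krüppel-like factor, stood at 224, 912, 1069 and 1371 CPM (3.07 ± 0.45, edgeR adjusted p = 1.4e-09). Grhl3 stood at 96.5, 545, 405 and 503 CPM (2.84 ± 0.53, edgeR adjusted p = 5.0e-06), and tfap2a, an AP-2 factor of surface ectoderm, at 116, 252, 345 and 401 CPM (2.24 ± 0.55, edgeR adjusted p = 9.5e-04). In each, all later libraries were above dome. Her6, a Hairy-related repressor, stood at 82.3, 334, 396 and 314 CPM. Znf185, at 71.0, 492, 491 and 678 CPM, is known in mammals as an actin-binding LIM protein, not as a transcription factor. Tfap2c had no UMI at dome and was at least 1.99-fold higher at 50% epiboly against a floor of 3 UMIs per library. With only trajectory cells 8 of 17 rose at 30% epiboly and 9 at 50% epiboly, there without TMM scaling 4 and with DESeq2 6. Under the preparation term 0 of 18 rose, with a median of 1.81.

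In the list of surface and secreted proteins 9 of 12 tested genes rose at 50% epiboly, beside 9.16% of all genes. They were capn9, cd9b, anxa1c, anxa1b, aplnra, alcamb, relt, spaca4l and slc3a2b. Capn9 is a calpain, a protease of the cell interior, and is neither a surface nor a secreted protein. The list median was 2.91, or 2.27 with anxa1c, at 0 in dome, at its bound. At 30% epiboly 7 rose, beside 6.18%. Anxa1b had 2 UMIs at dome, 19 and 7 UMIs at 30% epiboly and 22 UMIs at 50% epiboly. Spaca4l stood at 746 CPM at dome, 5819.8 and 4068 CPM at 30% epiboly and 6709 CPM at 50% epiboly (log2 change 3.63 ± 0.36, edgeR adjusted p = 7.7e-21). Cd9b, a tetraspanin, stood at 624, 1035, 974 and 1526 CPM (1.75 ± 0.41, edgeR adjusted p = 6.1e-04), and aplnra, a receptor for apelin and Toddler peptides, at 261, 989, 776 and 803 CPM (2.08 ± 0.45, edgeR adjusted p = 1.5e-04). Alcamb, a cell adhesion molecule of the immunoglobulin family, stood at 39.7, 337, 198 and 517 CPM (4.15 ± 0.61, edgeR adjusted p = 1.5e-09). Dome was lowest for each of these. The Kunitz-type protease inhibitor spint2 did not pass and stood at 383, 392, 499.9 and 401 CPM (edgeR adjusted p = 0.58). Among trajectory cells alone 6 of 12 rose at 30% epiboly and 8 at 50% epiboly, there without TMM scaling 4 and with DESeq2 6. In the fit with the preparation term 0 of 12 rose (median 1.93).

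Of 15 tested enzymes of lipid and sphingolipid metabolism, 14 rose at 50% epiboly, beside 9.16% of all genes. The median was 3.24, or 3.24 with acer1, at 0 in dome, at its bound. At 30% epiboly 13 rose, beside 6.18%. Mid1ip1a, which in mammals stimulates acetyl-CoA carboxylase and so fatty acid synthesis, stood at 1229 CPM at dome, 5302 and 9283 CPM at 30% epiboly and 5850.2 CPM at 50% epiboly (log2 change 2.71 ± 0.33, edgeR adjusted p = 1.9e-13). The fatty acid elongase elovl1a stood at 96.5, 717, 336 and 707 CPM (3.33 ± 0.52, edgeR adjusted p = 1.4e-08) and hsd17b12a, the reductase of the same elongation cycle, at 267, 820.0, 672 and 941 CPM (2.28 ± 0.46, edgeR adjusted p = 2.9e-05). Sphingolipid enzymes moved with them. Fa2h, the fatty acid 2-hydroxylase, stood at 22.7, 259, 793 and 415 CPM (4.63 ± 0.63, edgeR adjusted p = 6.0e-11), and degs2, a ceramide desaturase and hydroxylase, at 51.1, 295, 198 and 353 CPM (3.24 ± 0.60, edgeR adjusted p = 4.8e-06). Acer1, a ceramidase, had 0 UMIs in dome EVL cells and 65, 22 and 100 UMIs in the later libraries, at least 33.2-fold higher at 50% epiboly than a floor of 3 UMIs allows at dome. Sult6b1 stood at 341, 1816, 784 and 2541 CPM, with 30% epiboly replicate B well below replicate A. In trajectory cells only, 14 of 15 rose at 50% epiboly and 10 at 30% epiboly, without TMM scaling 4 at 50% epiboly and with DESeq2 12. Once preparation was a term, 1 of 15 rose (median 1.82). In 30% epiboly replicate B against dome 1 of 15 passed, with a median of 2.003 and all 15 positive.

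The actin cytoskeleton was divided. Of 22 tested genes, 10 rose at 50% epiboly (actb1, cnn2, waslb, actb2, myh9a, rhoab, tmsb4x, lcp1, tmsb1 and pfn1), beside 9.16% of all genes, and 7 at 30% epiboly, beside 6.18%, and none fell, with a median of 0.83. Profilin 1 (pfn1), which feeds actin monomers to growing filaments, stood at 965 CPM at dome, 3417 and 2767 CPM at 30% epiboly and 5531 CPM at 50% epiboly (log2 change 2.98 ± 0.36, edgeR adjusted p = 1.1e-13). Actb1, a cytoplasmic actin, stood at 897, 2888, 2276 and 3705 CPM (2.51 ± 0.37, edgeR adjusted p = 1.9e-09), while its near-identical relative actb2, at 2146, 2753, 2026 and 3292 CPM, moved less (1.08 ± 0.35, edgeR adjusted p = 0.026) and was at 1.38 with an edgeR adjusted p of 0.093 on the trajectory alone and at -0.57 with the preparation term. Tmsb1, a thymosin that holds actin monomers, stood at 170.3, 957, 724 and 1571 CPM (3.66 ± 0.47, edgeR adjusted p = 1.1e-12). The bundling protein lcp1 (L-plastin) stood at 45.4, 403, 353 and 1063 CPM, rising at both stages. The cofilins, which sever filaments, did not pass: cfl1 stood at 1473, 815, 1276 and 808 CPM (edgeR adjusted p = 0.62) and cfl1l at 1186, 976, 922 and 949.6 CPM (edgeR adjusted p = 0.88). Restricted to the trajectory, 6 of 21 rose at 30% epiboly and 8 at 50% epiboly, there without TMM scaling 4 and with DESeq2 7. With the preparation term 0 of 22 rose (median 1.13).

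Of 14 tested glutathione and redox enzymes only nqo1 and idh1 rose at 50% epiboly, beside 9.16% of all genes, and the list's median was -0.33. Nqo1, a quinone reductase, stood at 39.7 CPM at dome, 344 and 293 CPM at 30% epiboly and 743 CPM at 50% epiboly (log2 change 4.67 ± 0.59, edgeR adjusted p = 1.1e-12). Idh1, which makes NADPH in the cytoplasm, stood at 34.1, 135, 250.0 and 268 CPM (3.42 ± 0.66, edgeR adjusted p = 1.1e-05). The subunits of glutamate-cysteine ligase, the first enzyme of glutathione synthesis, did not pass: gclm stood at 233, 277, 319 and 237 CPM and gclc at 318, 236, 284 and 184 CPM (edgeR adjusted p = 0.65 and 0.78). Nqo1 and idh1 also rose on the trajectory alone and with DESeq2, and without TMM scaling nqo1 rose and idh1 did not pass. The preparation term left 0 of 14 (median -0.29).

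Cell cycle and pluripotency genes gave calls in both directions. Of 28 tested cell cycle genes, mcm6, ccnd1, bub1bb and wee1 rose and mcm5, ccna1 and gmnn fell at 50% epiboly (median -0.03), beside 9.16% of all genes higher and 1.48% lower. Among trajectory cells none of 26 passed on the higher side and only mcm5 fell, while the log2 changes of ccnd1 and mcm6 were 1.35 and 1.70, against 1.44 and 1.996 in all EVL cells. DESeq2 called 0 of the list. None passed with the preparation term, and ccnd1 and mcm6 stood at -0.24 and -0.13. The mitotic genes ccna2 and mki67 did not pass: ccna2 (cyclin A2) stood at 1969.8, 1491, 1336 and 1150.2 CPM and mki67 at 1152, 923, 922 and 562 CPM (edgeR adjusted p = 0.69 and 0.46). Geminin (gmnn), an inhibitor of replication licensing, stood at 919.6, 286, 267 and 198 CPM, highest at dome (-1.75 ± 0.50, edgeR adjusted p = 0.0067). Of 10 factors of deep cell pluripotency, sox3, pou5f3, sox2 and sp5l rose and nanog fell, beside 9.16% of all genes higher and 1.48% lower. Of these only nanog passed among the 9 tested on the trajectory alone (list median 0.55 there, against 1.17 in all EVL cells) and none with the preparation term (median 0.34). Sox2 had 1 UMI at dome, 5 and 1 UMIs at 30% epiboly and 20 UMIs at 50% epiboly. Its ratio of 50% epiboly to dome was 19.9, with a counting interval of 3.19 to 825. Nanog stood at 982 CPM at dome, 346 and 293 CPM at 30% epiboly and 198 CPM at 50% epiboly (-1.85 ± 0.49, edgeR adjusted p = 0.0031). Pou5f3 stood at 1073, 1672, 1439 and 1690.0 CPM (1.12 ± 0.39, edgeR adjusted p = 0.039) in EVL cells. The ectoderm and margin sums given above also differed between the dome and later libraries.

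Of 24 tested RNA-binding and decay factors, ptbp1a, ybx1, esrp1, zfp36l1a, zfp36l1b and cirbpb rose at 50% epiboly, beside 9.16% of all genes, with a list median of 0.17 (0.17 with zfp36l1b, at 0 in dome, at its bound), and 3 rose at 30% epiboly, beside 6.18%. Esrp1, the epithelial splicing regulator, stood at 25.5 CPM at dome, 181 and 233 CPM at 30% epiboly and 271 CPM at 50% epiboly (3.85 ± 0.68, edgeR adjusted p = 1.0e-06). Ptbp1a, a splicing repressor, stood at 42.6, 426, 138 and 534 CPM (4.10 ± 0.60, edgeR adjusted p = 1.5e-09). Ybx1, a mRNA-packaging protein, stood at 2381, 3513, 3379 and 4316 CPM (1.32 ± 0.34, edgeR adjusted p = 0.0023). With the label narrowed to trajectory cells, 2 of 24 rose at 30% epiboly and 4 at 50% epiboly, there without TMM scaling 1 and with DESeq2 2. Adding the preparation term, 0 of 24 rose (median -0.67). Cirbpb, an RNA-binding protein, turned to -0.80 with it.

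The genes that fell most clearly at 50% epiboly were mostly unlabelled transcripts. Slc16a3, a monocarboxylate transporter, stood at 934 CPM at dome, 344 and 345 CPM at 30% epiboly and 116 CPM at 50% epiboly (log2 change -2.55 ± 0.52, edgeR adjusted p = 3.6e-05), with 0% of its dome UMIs labelled. Lamp2, a lysosomal membrane protein, stood at 1266, 417, 491 and 232 CPM (-1.99 ± 0.47, edgeR adjusted p = 6.0e-04), with 0.413% labelled at dome, and mkrn4, a makorin ring-finger protein, at 1127, 476, 379 and 218 CPM (-1.91 ± 0.47, edgeR adjusted p = 0.0013). Usf1l and fam117ab had 3 and 1 UMIs at 50% epiboly, against 52 and 34 UMIs at dome. In other cells slc16a3 stood at 1140.0, 519, 418 and 217 CPM, lamp2 at 1499, 642, 868 and 382 CPM and mkrn4 at 1170.4, 838, 692 and 366 CPM. At 30% epiboly gmnn, nedd4l (a ubiquitin ligase), spink2.1 (a Kazal-type protease inhibitor), sox19b (a maternal Sox factor) and nanog fell, with log2 changes of -1.44, -2.62, -1.68, -2.48 and -1.32. Nedd4l had 7 and 1 UMIs at 30% epiboly, against 38 at dome. Of 12 tested maternal control genes 4 fell at 50% epiboly (cldng, h1m, ccna1 and cldnd), beside 1.48% of all genes, and none rose (median -1.51). None of 10 passed on the trajectory alone (median -1.38). Of 9 zygotic control genes 8 rose (median 1.99), beside 9.16% of all genes, and 2 of 8 on the trajectory alone (median 1.997). None of either list passed with the preparation term (medians -2.05 and 1.99).

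Between 50% and 30% epiboly few genes passed the test in EVL cells. Only zgc:174938 and lcp1 rose (0.0405% of 4937 genes) and none fell, with 228 genes at an unadjusted p under 0.05, and DESeq2 called 0 (14 at an unadjusted p under 0.05). Lcp1 had a log2 change of 1.65 ± 0.38 (edgeR adjusted p = 0.044), standing at 1063 CPM at 50% epiboly, against 403 and 353 CPM at 30% epiboly. The other gene, zgc:174938, had 91 UMIs at 50% epiboly, against 29 and 2 UMIs at 30% epiboly and 1 UMI at dome (edgeR adjusted p = 0.04 for 50% against 30% epiboly). Against its 1 dome UMI the ratio at 50% epiboly was 90.6 with a counting interval of 15.9 to 3618. In trajectory cells edgeR called 0 genes (153 at an unadjusted p under 0.05), with log2 changes of 2.45 for zgc:174938 and 1.64 for lcp1, against 2.53 and 1.65 in all EVL cells. It called 0 with the preparation term too (158 at an unadjusted p under 0.05). Of the genes with the lowest p on the lower side, mcm5, slc16a3 and fam117ab, none passed (edgeR adjusted p = 0.98, 0.78 and 0.6).

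The second question was which changes were larger in EVL cells than in the rest of the embryo. An interaction term in edgeR, over 9755 genes in EVL and other cells of the 4 libraries, set the change of each gene in EVL cells against its change in other cells. At 50% epiboly against dome 121 genes had a larger log2 change in EVL cells and 5 a smaller one (1.29% of genes, 1.24% larger and 0.0513% smaller), and at 30% epiboly 63 and 1 (0.656%, 0.646% and 0.0103%). DESeq2 called 53 and 30 genes, all with a larger change in EVL cells. Without TMM scaling the counts were 122 and 40, and 63 and 21. With only trajectory cells they were 142 and 11, and 86 and 8. The library term of this model takes up shifts that EVL and other cells of a library share, and a preparation term for the difference between them was not fitted. In this edgeR model too every gene was held to the trend of spread over all genes, on the trajectory and without TMM scaling as well. No gene was thus tested against a spread of its own. In the main fit that spread came from the 30% epiboly pair. Since the EVL clusters were drawn from the same counts, these p-values are not independent of the label.

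Keratins and claudins were also higher in the later libraries of other cells, at far lower levels, and of 8 keratins tested against other cells only krt8 was called (log2 difference 1.43 ± 0.41, edgeR adjusted p = 0.041), and it missed the threshold on the trajectory alone (edgeR adjusted p = 0.073). Several of the called genes held or raised their level in EVL cells while it was lower in the later libraries of other cells. Elovl1a stood at 96.5, 717, 336 and 707 CPM in EVL cells, against 43.9, 22.6, 15.7 and 11.7 CPM in other cells, and differed in its change by 4.84 ± 0.45 (edgeR adjusted p = 9.7e-23). Epcam stood at 1195, 886, 2422 and 1563 CPM, against 901, 117, 607 and 126 CPM (3.30 ± 0.36, edgeR adjusted p = 1.4e-16), and in both kinds of cells 30% epiboly replicate B lay far above replicate A. Cdh1 stood at 659, 694, 715 and 885 CPM, against 704, 382, 339 and 227 CPM (2.13 ± 0.36, edgeR adjusted p = 9.8e-07). Crb3b stood at 90.8, 176, 198 and 226 CPM, against 46.6, 12.8, 14.6 and 7.36 CPM (4.05 ± 0.51, edgeR adjusted p = 1.5e-12). In these genes the 50% epiboly library of other cells was below that of dome, and the EVL library was not.

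By list, 10 of 15 lipid enzymes had a larger change in EVL cells at 50% epiboly, 6 of 18 tight junction genes (crb3b, oclnb, f11r.1, cldn7b, cgnb and tjp3), 3 of 16 of adherens junctions and desmosomes (ppl, cdh1 and epcam), 4 of 23 of the actin cytoskeleton (cnn2, waslb, myh9a and pfn1), 3 of 13 surface proteins (cd9b, spaca4l and slc3a2b), 2 of 18 transcription factors (klf6a and tfap2a) and 2 of 17 redox enzymes (nqo1 and idh1). None of 34 cell cycle genes and none of 10 pluripotency factors was called in edgeR, beside 1.29% of all genes. Nqo1 stood at 39.7, 344, 293 and 743 CPM in EVL cells, against 18.5, 21.2, 18.2 and 17.1 CPM in others (4.41 ± 0.52, edgeR adjusted p = 2.6e-14). Pfn1 stood at 965, 3417, 2767 and 5531 CPM, against 499, 292, 469.7 and 251 CPM (3.58 ± 0.37, edgeR adjusted p = 8.7e-19). Waslb, an activator of branched actin growth, stood at 202, 353, 543 and 667 CPM, against 95.6, 56.6, 67.4 and 33.0 CPM (3.33 ± 0.41, edgeR adjusted p = 2.1e-13). Among the 5 genes with a smaller change was tbxta, a mesoderm factor of the margin, at 90.8, 208, 457 and 181 CPM in EVL cells, against 91.3, 652, 675 and 783 CPM in others (-2.04 ± 0.47, edgeR adjusted p = 0.0019); on the trajectory alone its edgeR adjusted p was 0.07. The others were FO834857.1, insb, fscn1a (an actin-bundling fascin) and elovl6 (a fatty acid elongase), and at 30% epiboly the 1 gene with a smaller change was mixl1, a mesendoderm factor.

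The third question was how much of these changes lay in maternal and how much in new RNA. For 616 genes with enough UMIs, unlabelled and labelled parts of the EVL level were tested apart with limma on log2(CPM + 1), a scale on which changes of low genes are understated. The CPM were not TMM scaled here, unlike in the main edgeR fits of total RNA. In unlabelled RNA 31 genes fell and none rose at 50% epiboly against dome (5.03% called). None was called at 30% epiboly against dome or at 50% against 30% epiboly, where 48 and 50 genes had an unadjusted p under 0.05. Cdca7a, a chromatin factor of dividing cells, stood at 1711 unlabelled CPM at dome, 619 and 543 at 30% epiboly and 263 at 50% epiboly (log2 change -2.70 ± 0.38, limma adjusted p = 0.0014). H1m, the maternal linker histone, stood at 1731, 809, 749.9 and 438 unlabelled CPM (-1.98 ± 0.35, limma adjusted p = 0.005). Serp1, a stress-associated protein of the endoplasmic reticulum, stood at 1594, 683, 734 and 372 unlabelled CPM (-2.10 ± 0.36, limma adjusted p = 0.0041). All later libraries, 30% epiboly replicate B among them, were below dome for these genes, and a preparation term was not fitted here. Of the genes with the lowest p values for a higher unlabelled level, zgc:193505, ved and asb11, none passed.

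In labelled RNA limma called 0 genes in any of the 3 contrasts, with 144 at 50% epiboly against dome, 120 at 30% epiboly against dome and 19 at 50% against 30% epiboly under an unadjusted p of 0.05, and the smallest adjusted p was 0.186. The lowest p values at 50% epiboly belonged to si.dkey.16p21.8, gpt2 and cldne on the higher and to rtf2, dap and fopnl on the lower side. This fit borrowed little from the spread of all genes (0.96 prior degrees of freedom, against 15.0 in unlabelled RNA), so it could call few changes. Of 616 labelled changes at 50% epiboly against dome, 559 were positive and 37 negative. The medians over the 616 genes were 1.52, 1.01 and 0.53 on the log2 scale for labelled RNA, against -0.60, -0.33 and -0.33 for unlabelled RNA. These are without TMM scaling. Without it the median of 4937 genes in total RNA was itself at -0.53, -0.27 and -0.21. How much of the unlabelled medians came from scaling was not tested. The 2 parts of pfn1 had log2 changes of opposite sign. Its unlabelled level was 488 CPM at dome, 313 and 193 at 30% epiboly and 97.3 at 50% epiboly (-2.31 ± 0.62, limma adjusted p = 0.042). Its labelled level was 477, 3104, 2574 and 5434 CPM (3.51 ± 0.28, limma adjusted p = 0.19). Among the abundant genes of the layer krt4 was 95.4%, 89.0%, 99.8% and 98.2% labelled, cldne 84.1%, 92.5%, 99.7% and 98.0%, cebpb 96.1%, 93.0%, 100% and 95.6% and spaca4l 97.3%, 97.1%, 99.4% and 99.5% (dome, 30% A, 30% B and 50% A). Most molecules of these 4 genes were new in each library. Their change was called in total RNA only, and the labelled fit could call too little to decide on new RNA.

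The last question was whether single genes differed in age between EVL and other cells. The labelled fraction of each gene was compared within each library, for 582 genes with at least 20 UMIs behind the value on both sides, with limma over the 4 differences. Pfn1, tob1a, actb1 and actb2 had a higher labelled fraction in EVL cells (0.687% of genes) and 0 genes a lower one, with 105 genes at an unadjusted p under 0.05. Pfn1 was 49.4%, 90.8%, 93.0% and 98.2% labelled in EVL cells, against 1.72%, 7.59%, 2.70% and 14.1% in other cells of the same libraries, a mean difference of 76.4 ± 7.53 percentage points (SE, n = 4; limma adjusted p = 0.031). Tob1a, an antiproliferative protein that recruits the deadenylation machinery, was 80.2%, 89.6%, 99.3% and 91.8% labelled, against 19.4%, 50.4%, 61.6% and 41.0% (47.1 ± 4.44 points, limma adjusted p = 0.031). Actb1 was 80.9%, 91.5%, 96.4% and 95.4% labelled, against 56.5%, 71.5%, 75.3% and 80.7% (20.0 ± 1.75 points, limma adjusted p = 0.031), and actb2 27.3%, 57.4%, 48.6% and 69.7%, against 17.1%, 39.6%, 31.0% and 57.3% (14.5 ± 1.67 points, limma adjusted p = 0.048). Every EVL library was above its partner for all 4 genes. Without dome 29 genes passed, these 4 among them. Without 30% A, 30% B and 50% A the counts were 0, 1 and 0, and none of the 4 genes passed. On the trajectory alone 4 genes were called (3 higher, 1 lower), among them pfn1, tob1a and actb1. Against other cells of like pseudotime 5 genes were called, 3 higher and 2 lower, and 3 of these 5 were among the 4 genes above. With 50 or more UMIs behind each value 6 were called, 4 higher and 2 lower.

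**Figure D5:**
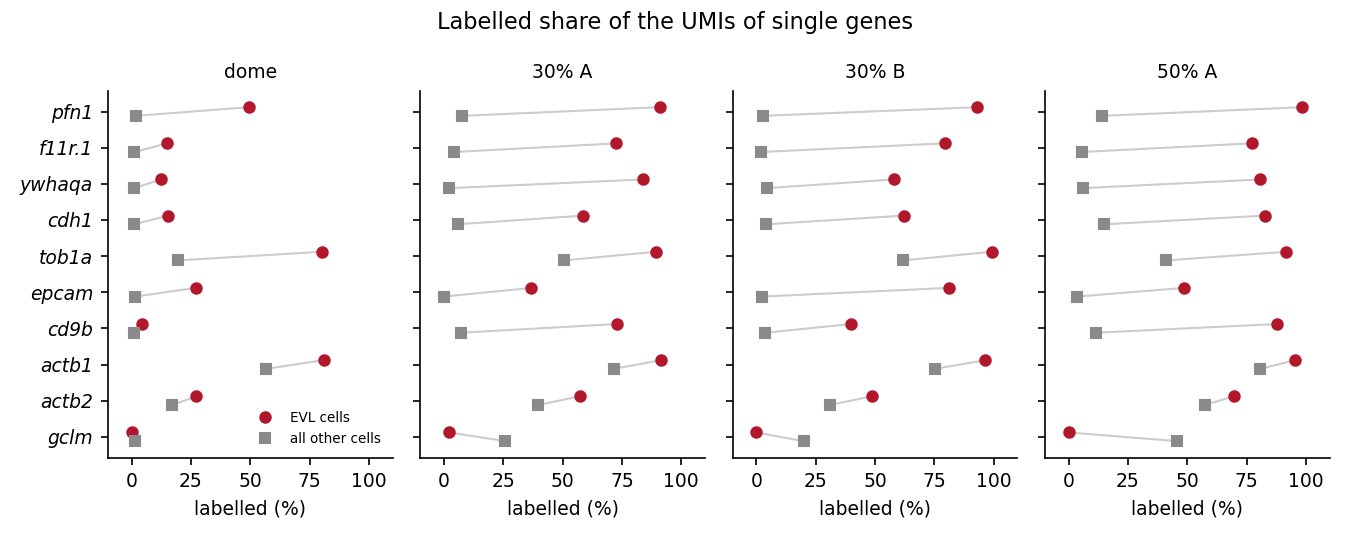
Labelled fraction in percent of 10 genes in EVL cells and in other cells of each library. Pfn1, f11r.1, ywhaqa, cdh1, tob1a and epcam were newer in EVL cells in every library, and of these only pfn1 and tob1a passed the limma test. Gclm was newer in the other cells, by little at dome and on few EVL UMIs, and did not pass.

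Another 4 genes were at least 10 points higher in EVL cells in every library without passing the test, and none was 10 points lower in every library. F11r.1 was 15.1%, 72.7%, 79.5% and 77.1% labelled in EVL cells, against 1.18%, 4.47%, 1.99% and 5.54% in others. Ywhaqa, a 14-3-3 protein, was 12.5%, 83.9%, 57.8% and 80.6%, against 1.07%, 2.24%, 4.32% and 6.08%. Cdh1 was 15.4%, 58.7%, 62.1% and 82.6%, against 1.17%, 5.75%, 3.98% and 15.0%, and epcam 27.2%, 36.9%, 81.1% and 48.6%, against 1.47%, 0%, 2.23% and 3.38%. In other cells these transcripts stayed mostly unlabelled, and in EVL cells most were new by 50% epiboly, except for epcam at 48.6%. Total epcam, given above, was higher in EVL cells than in other cells of every library. The unlabelled level of epcam was not compared between EVL and other cells, and its total and labelled share do not place it on the same side in every library. None of the 4 passed the stage test of total RNA in EVL cells. Unlabelled cdh1 stood at 154 CPM at 50% epiboly, against 557 CPM at dome, and labelled cdh1 at 731 CPM at 50% epiboly, against 101 CPM at dome. Across all 582 genes, 73 were higher and 82 lower in EVL cells in all 4 libraries.

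The study also named maternal transcripts as slower or faster to be lost in the EVL, a choice made on these samples, so their values here are no independent evidence. For epcam, among the slower ones, the study also injected a reporter mRNA with the untranslated regions of epcam. It was significantly more stable in the EVL than in the rest of the embryo, while a reporter with neutral regions was slightly more stable there. Of 14 slower ones tested here, rps2, cycsb, rps4x and hsd17b12a rose in total EVL RNA at 50% epiboly, beside 9.16% of all genes, and on the trajectory alone 2 of 14 did. Of 4 faster ones tested, actb1, dhrs13a.2 and pfn1 rose, beside 9.16% of all genes, and did so on the trajectory alone too. Gclm, among the slower ones, was 0%, 2.12%, 0% and 0% labelled in EVL cells, against 1.52%, 25.9%, 20.0% and 45.8% in other cells, on 37, 66, 26 and 30 EVL UMIs, and did not pass the test of the labelled fraction (limma adjusted p = 0.2). Dhrs13a.2, a predicted short-chain dehydrogenase, stood at 383 CPM at dome, 1567 and 1551 CPM at 30% epiboly and 2176 CPM at 50% epiboly and was 91.9%, 90.6%, 99.4% and 94.1% labelled, against 16.6%, 10.3%, 23.7% and 11.5% in other cells.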

How the data were processed

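Iodoacetamide-treated Drop-seq libraries of 4-thiouridine embryos were analysed, and those without iodoacetamide were not used. Per the study's methods the authors used Bowtie2 and the Drop-seq tools for alignment to an Ensembl Zv10 genome (the submitters' notes name GRCz11, which the methods give for GRAND-SLAM), kept cells with at least 500 genes, and deposited UMI counts per gene and cell. The labelled fraction of each gene and cell was deposited as the authors' GRAND-SLAM estimate. Pseudotime was deposited as a score in pseudo-minutes that the authors computed with URD, beside cell type and trajectory membership. How reads with several matches were counted was not given in the sources used here. From these files, UMIs were summed over EVL cells and over other cells of each library (20920 genes, with 4 injected RNAs set aside), scaled to a common library total (CPM), and tested with edgeR 4.0.16 (quasi-likelihood, TMM scaling, Benjamini-Hochberg adjustment, threshold 5%). DESeq2 1.42.0 served as the alternative tool. The labelled fraction was the UMI-weighted mean over pairs of gene and cell with 3 or more UMIs, for the 10123 genes whose UMIs over all cells reached 50. Unlabelled and labelled levels, the CPM without TMM scaling multiplied by these fractions, and the fractions themselves were tested with limma 3.58.1 (pseudocount 1 CPM, 20 or more UMIs behind each value). The replicate letter was tied to the preparation by the study's methods (dome and second epiboly replicate by shaking, first by hand), so fits with it as a block are given beside the stage results; A minus B differences at 30% and 50% epiboly correlated across genes at r = 0.023 in EVL cells, where 50% B holds 3 cells, and 0.147 in other cells. Single values per library were tested by exact sign-flip tests. The edgeR and limma fits were also run on simulated data, and the sign-flip tests were not. The dome library's title carries the letter B and its cell names the letter A, and there is 1 dome library. The members and the gene lists were chosen with earlier results of these data known. Named were, in each stage contrast, the 5 genes of lowest p in each direction among those past the threshold with 50 or more UMIs (the 3 of lowest p where none passed), the 10 genes of largest fold over other cells, and the list members of highest mean CPM in EVL cells. Any other gene was chosen after its values were seen.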

Additional observations from a re-analysis of the deposited data

Results flagged for a closer look

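The change with stage differed between EVL and other cells for 126 genes at 50% epiboly against dome and for 64 genes at 30% epiboly against dome, by the interaction term of edgeR at an adjusted p under 0.05. Both contrasts share the dome library. The 3 EVL cells of 50% epiboly replicate B, which the main comparisons left out, carried the markers of the layer: krt4 stood at 15033 CPM, krt8 at 3898 CPM, cldne at 1299 CPM and cldnb at 4269 CPM, against 34.4 CPM for the 4 genes together in the other cells of that library.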

How the results depend on the processing

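Counts of called genes depended on the processing. At 50% epiboly against dome (525 calls) the count was 73 without TMM scaling, 133 with DESeq2, 314 with 50% epiboly replicate B, 272 on the EVL trajectory alone and 273 without EVL cells holding a margin or germ cell marker. At 30% epiboly against dome (321) it was 33, 104 (all higher), 191 and 156 under the first 4 of these. At 50% against 30% epiboly (2) it was 0 under each of the 5 and without the low-count filter. Leaving out 1 library, with replicate B at 50% epiboly put in where a fit needed it, gave 25 to 364, 16 to 288 and 0 to 14 calls. A lone library was then assumed to vary like the others. The interaction gave 53 (50% epiboly) and 30 (30% epiboly) calls with DESeq2. In unlabelled RNA, 30% epiboly against dome gave 2 calls with 50 or more UMIs behind each value and 6 without 50% epiboly replicate A. The labelled fraction per gene gave 61 calls (55 higher, 6 lower) with pairs of 1 or more UMIs, and 0 to 29 with 1 library left out; with pairs of exactly 3 UMIs it could not be fitted. The labelled fraction of all genes against cells of like pseudotime was -3.65 points without genes over 2-fold higher in EVL cells, and the later minus the earlier EVL cells kept its direction under all its alternatives. The cause of these moves was not tested.

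With a replicate block, which stands for the preparation, over 5 libraries edgeR called 24, 13 and 0 genes in the 3 stage contrasts, and actb2 (-0.57), ccnd1 (-0.24), cirbpb (-0.80), cxcr4a (-0.82) and mcm6 (-0.13) turned negative at 50% epiboly and cxcr4a (-0.046) at 30% epiboly. Among single genes, zgc:174938 ran between -6.58 and 3.87 and mcm5 between -2.90 and 2.05 at 50% against 30% epiboly with 1 library left out, cxcr4a between -0.023 and 2.57 at 30% epiboly, and labelled rtf2 was 0.088 with pairs of 1 or more UMIs. Of 2362 values of 287 gene and contrast pairs, 1357 kept direction and side of the threshold, 990 missed it, 5 newly passed and 10 changed sign. The exchange of 50% epiboly replicate A for the 3 cells of replicate B was run on 4025 genes but entered these values for few of them. In it the median gene stood at -5.71 at 50% epiboly against dome, with 914 changes positive and 3093 negative. The 10 changes of sign thus leave most of that fit out. Depth limits genes under about 3 UMIs in 23 to 143 cells, for which no change can be seen.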
